A study of Mus musculus with 55 samples.

Results

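IL-1513 is one of the Collaborative Cross (CC) lines, recombinant inbred mouse lines whose genomes are mosaics of the same founder strains. The line was represented by 2 of the 55 livers, mice 4546 and 4547, taken as all mice whose strain label is IL-1513. The comparison set was the remaining 53 mice of 28 lines, of which 8 had 1 mouse, 15 had 2 and 5 had 3. All animals were naive males with no treatment. The IL-1513 mice were both 8.1 weeks old and weighed 16.0 and 17.8 g, against 8.0 to 11.9 weeks in the other mice and line mean weights of 14.7 to 32.9 g (median 23.0 g). Only 2 lines were lighter. Polyadenylated RNA was sequenced and summarised per gene as an estimated fragment count and as FPKM, a level corrected for transcript length and library size. No batch is named in the labels, so the effect of the line cannot be told apart from that of a cage or collection day that its 2 mice may have shared. Age and weight overlapped with those of other lines, and the main comparison was repeated against lines of low weight or age alone.

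The liver changes its expression programme with feeding. After a meal, insulin promotes glycogen and fat synthesis and, by way of FOXO transcription factors, turns down genes for glucose release. In fasting or stress, glucagon, adrenaline and glucocorticoids raise those genes through the cAMP-responsive factor CREB and the glucocorticoid receptor. The gene groups below are ordered by these roles, with hormone and stress response first and drug disposition after them.

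The libraries of mice 4546 and 4547 held 31030466 and 29503569 assigned fragments, within the 20542671 to 33953036 of the other mice. Expression over the 11284 genes that reached 2 FPKM in at least 1 mouse correlated between the 2 IL-1513 mice with a Spearman coefficient of 0.980, and with no other mouse above 0.932. The median absolute difference between them was 0.18 on the log2(FPKM + 1) scale, within the range of 0.10 to 0.29 seen in the other lines of 2 mice. By line mean the closest lines were IL-519 (0.937) and IL-2750 (0.933) and the most distant was IL-2146 (0.897), values that describe these libraries only. The hepatocyte markers summed to 33292 and 32646 FPKM against 17810 to 69562 (median 49830) in the other mice. These values lay below the median, and 3 of the 6 markers were called lower by edgeR (Alb, Ttr and Serpina1a) and 1 higher (Tat), with a median log2 fold change of -0.38. Of the other marker lists, none had a summed level in the IL-1513 mice that was above all other mice, but erythroid markers (446 and 2122 FPKM, others 454 to 4528) and neutrophil markers (12.1 and 0.81 FPKM, others 0.29 to 136) differed between the pair.

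Both IL-1513 mice were higher than every other mouse at 222 genes (1.97% of those tested) and lower than every other mouse at 48 (0.425%). The higher genes had a median ratio to the mean of the other lines of 2.098, and the lower genes were lower by a median of 2.54-fold. This split depended on scaling, since on counts scaled by TMM library sizes in place of FPKM 169 genes were higher and 94 lower, of which 152 and 42 were shared with the FPKM sets. Predicted genes and pseudogenes made up 42 of the higher and 9 of the lower genes. The filter on low values was passed only through the IL-1513 mice by 22 of the higher genes, which had to be high.

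The same rule applied to each other line gave a wide spread. Among the 15 other lines with 2 mice, the median was 73 higher and 21 lower genes. IL-2146 (389 higher, 554 lower) and IL-4457 (382 higher, 435 lower) exceeded IL-1513, which ranked 3 of 16 by the total. IL-1513 was thus among the more divergent lines. Its genes lay mostly on the higher side, a lean also seen in the medians of the other lines with 2 mice.

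**Figure D1:**
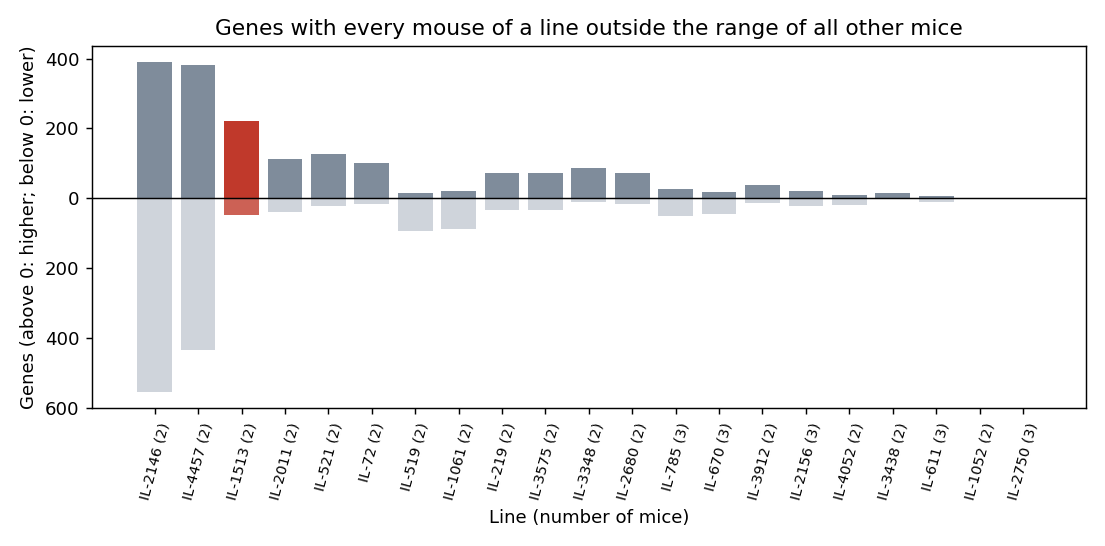
Number of genes for which every mouse of a line lay above (upward bars) or below (downward bars) all other mice, for each of the 21 lines with at least 2 mice. IL-1513 (red, 222 and 48 genes) stands after IL-2146 and IL-4457.

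The difference was then tested with edgeR's quasi-likelihood test of IL-1513 against the unweighted mean of the 28 other lines, with Benjamini-Hochberg adjustment over all genes. At an adjusted p of 0.05 it called 1930 genes higher (17.1%) and 1257 lower (11.1%). This test sets the difference against the spread between mice of 1 line. When each line was taken as 1 unit, so that the difference was set against the spread between lines, 48 genes were called higher (0.425%) and 5 lower (0.0443%). Without mouse 4546 the calls numbered 1125 and 582, and without mouse 4547 they numbered 1215 and 699. Of the genes outside the range, 217 of 222 and 48 of 48 were called by edgeR in the same direction, and 45 and 2 also with the line as the unit. Since the range rule and the test use the same values, the agreement of these counts is a description. Fold changes below are edgeR log2 fold changes of IL-1513 against the other lines, with their standard error (SE) and adjusted p.

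The gene with the widest gap between the nearer IL-1513 mouse and the nearest other mouse on the log2(FPKM + 1) scale (3.19) was Ppp1r3g (chr13:36050708-36062257, mm9), which encodes a subunit that targets protein phosphatase 1 to glycogen. Its level was 138 and 98.6 FPKM in mice 4546 and 4547, against a lowest value of 0, a median of 0.23 and a highest of 9.95 FPKM in the other mice. The line mean was 135 times that of the other lines (log2 fold change 8.36, SE 0.39, adjusted p = 3.26e-16), and the difference was also called with the line as the unit (adjusted p = 1.35e-05). Against the 7 other lines with a mean weight of at most 20 g the log2 fold change was 7.62, and against the 8 of at most 8.4 weeks it was 8.17, both called by edgeR. Follistatin (Fst), a secreted protein that binds activins, was at 64.5 and 69.4 FPKM against 0.34 to 16.4 FPKM (median 1.24) in the other mice (log2 fold change 5.30, SE 0.21, adjusted p = 7.06e-18). The activin subunit gene Inhbe, expressed in hepatocytes, lay on the other side, at 1.06 and 1.12 FPKM against 1.65 to 36.2 FPKM (median 14.5). Its log2 fold change was -3.65 (SE 0.44, adjusted p = 2.01e-07), but it was not called with the line as the unit (adjusted p = 0.295). By the rule that picked them, the groups did not overlap for any of these genes. For Ppp1r3g the lower IL-1513 mouse lay about an order of magnitude above the nearest other mouse.

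**Figure D2:**
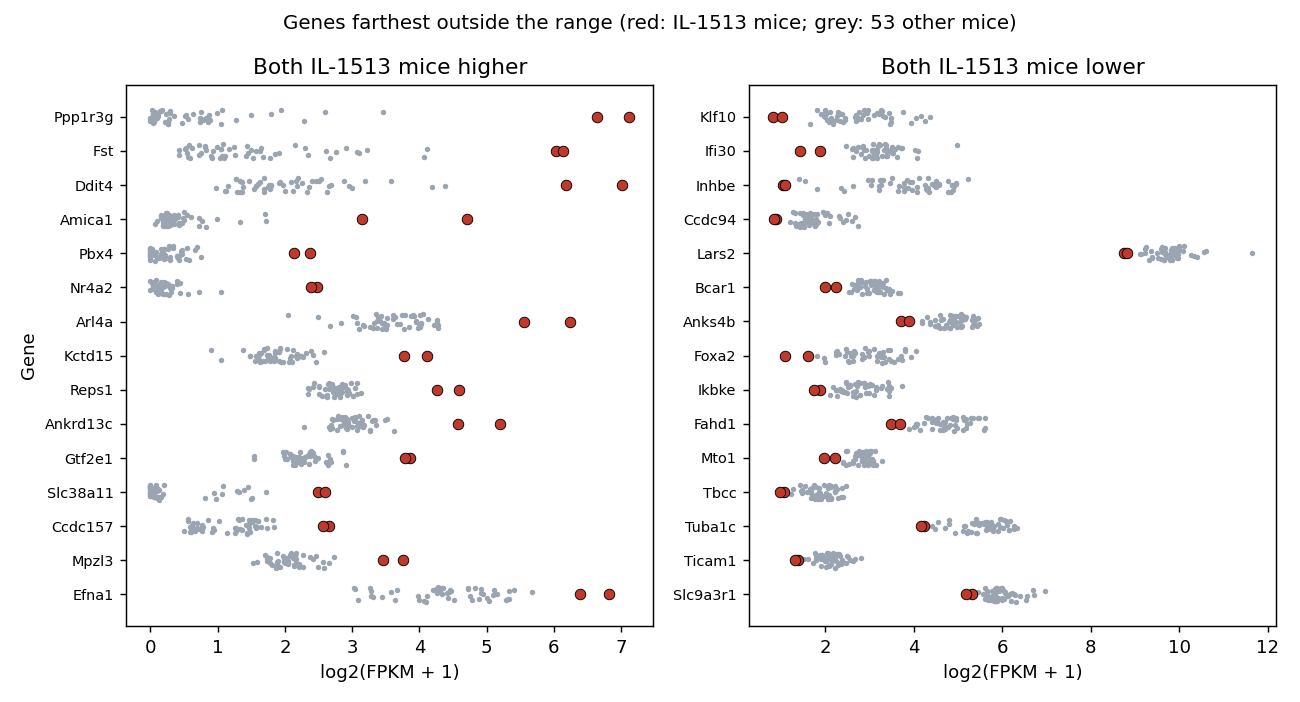
Expression on the log2(FPKM + 1) scale of the 15 higher and 15 lower genes with the widest gap between the nearer IL-1513 mouse and the nearest other mouse; red points are the 2 IL-1513 mice and grey points the 53 other mice. Red and grey do not overlap, by the rule that picked the genes. The gaps are wider on the higher side, led by Ppp1r3g, than on the lower side. The scale narrows gaps at low levels.

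The other genes with the widest gaps on the higher side covered several roles. Ddit4, an inhibitor of mTORC1 signalling, was at 128 and 71.7 FPKM against 0.97 to 19.8 FPKM (median 2.48) in the other mice. Amica1, an adhesion molecule of the immunoglobulin superfamily, was at 25.1 and 7.85 FPKM against at most 2.29 FPKM, the pair thus differing from each other by more than 3 times, with 4546 the higher as for the neutrophil markers, whose part in this was not tested. Transcriptional regulators were the orphan nuclear receptor Nr4a2 (4.57 and 4.24 FPKM, others at most 1.08), the homeodomain factor Pbx4 (4.18 and 3.39, others at most 0.69) and Gtf2e1, a subunit of general factor TFIIE (13.5 and 12.7, others 1.92 to 6.51). Efna1, the ligand ephrin-A1, was at 112 and 82.5 FPKM against 7.17 to 50.1 FPKM. The small GTPase gene Arl4a was at 74.4 and 46.0 FPKM against 3.14 to 18.4 FPKM, and Reps1, involved in endocytosis, at 23.0 and 18.2 FPKM against 4.09 to 7.72 FPKM. Kctd15, Ankrd13c, Mpzl3, Ccdc157 and the amino acid transporter Slc38a11 completed the set, with line means between 3.44 and 16.1 times those of the other lines. Of these 15 genes, 13 were also called with the line as the unit, the exceptions being Slc38a11 (adjusted p = 0.582) and Ccdc157 (adjusted p = 0.344). The 15 were picked for their gaps in the same values, so these calls are a description. Pbx4 and Nr4a2 passed the filter of 2 FPKM only through the IL-1513 mice, and so had to be high. Of the predicted genes, the pseudogene Gm13328 had the widest gap (5.16 and 5.74 FPKM, others at most 0.12, a wider gap than that of Ppp1r3g as a plain ratio of FPKM), and Rps12-ps3 was at 94.4 and 61.8 FPKM against 1.47 to 27.8 FPKM. Gm13328 also passed the filter only through the IL-1513 mice. Such copies of other genes can share reads with their parents, so their values are uncertain.

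Genes of gluconeogenesis and fasting were the list, of 46, with the most members outside the range. Of its 16 tested genes, 9 were called higher (56.3%, against 17.1% of all tested genes) and 1 lower (6.25%, against 11.1%), with a median log2 fold change of 1.09 against 0.01 over all genes. Above every other mouse lay 7 of the 16, against 1.97% of all genes: Ddit4, Igfbp1, Irs2, G6pc, Tat, Ppargc1a and Foxo1. With the line as the unit 3 remained called, Ddit4, Irs2 and Ppargc1a.

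**Figure D3:**
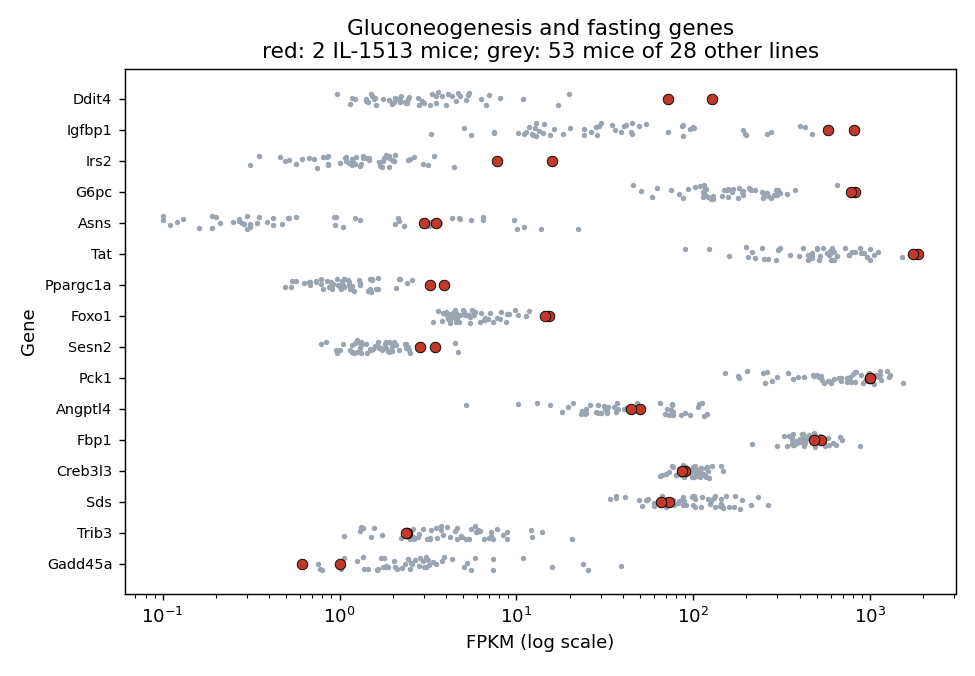
FPKM (log scale) of the 16 tested genes of gluconeogenesis and fasting in each mouse, ordered by log2 fold change; red points are the 2 IL-1513 mice and grey points the 53 other mice. For 7 genes both red points lie beyond all grey ones, whereas Pck1 (1001 and 1001 FPKM) lies inside the grey range.

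The promoters of the members that carry a short insulin-response motif, and that of Ppp1r3g, are shown because the text refers to them. They run from 250 bases before to 50 bases after the transcription start of RefSeq, on the gene's strand, in build GRCm38.p6, which differs from the mm9 of the expression files. CAAAACA is the core of the insulin response element that FOXO factors bind, and TGACG is the half-site of the cAMP response element. The motifs were chosen with the expression results known. Both strands were searched, and capitals mark matches (TGTTTTG is CAAAACA on the opposite strand). The motifs share no overlapping match here.
Igfbp1 (chr11:7197537-7197836, plus strand): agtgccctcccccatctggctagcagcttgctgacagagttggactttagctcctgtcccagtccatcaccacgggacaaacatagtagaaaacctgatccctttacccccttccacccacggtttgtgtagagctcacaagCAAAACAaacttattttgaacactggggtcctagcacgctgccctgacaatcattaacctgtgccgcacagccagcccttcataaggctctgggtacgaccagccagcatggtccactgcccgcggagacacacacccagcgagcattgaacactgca
G6pc (chr11:101367466-101367765, plus strand): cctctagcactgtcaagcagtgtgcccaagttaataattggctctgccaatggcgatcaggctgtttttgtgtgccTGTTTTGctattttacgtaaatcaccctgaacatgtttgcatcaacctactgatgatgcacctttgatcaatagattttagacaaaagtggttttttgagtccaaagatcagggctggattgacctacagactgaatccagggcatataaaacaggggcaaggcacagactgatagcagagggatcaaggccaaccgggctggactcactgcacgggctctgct
Irs2 (chr8:11008880-11009179, minus strand): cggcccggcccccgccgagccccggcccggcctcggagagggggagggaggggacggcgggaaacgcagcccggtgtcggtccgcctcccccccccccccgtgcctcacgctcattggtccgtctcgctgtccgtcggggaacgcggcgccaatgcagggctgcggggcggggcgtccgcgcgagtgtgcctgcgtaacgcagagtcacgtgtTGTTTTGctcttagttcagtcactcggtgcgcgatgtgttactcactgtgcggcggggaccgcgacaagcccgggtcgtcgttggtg
Ppp1r3g (chr13:35967656-35967955, plus strand): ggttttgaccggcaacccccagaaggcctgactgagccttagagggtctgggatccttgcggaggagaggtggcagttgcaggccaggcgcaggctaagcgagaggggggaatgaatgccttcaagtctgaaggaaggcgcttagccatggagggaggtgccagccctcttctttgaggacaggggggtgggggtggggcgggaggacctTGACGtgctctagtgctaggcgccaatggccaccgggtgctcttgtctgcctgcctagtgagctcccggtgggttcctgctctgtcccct

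The match began 108 bases upstream of the start in Igfbp1, 174 in G6pc and 37 in Irs2, and the TGACG of Ppp1r3g began 40 bases upstream. CAAAACA was present in 3 of the 7 promoters of fasting genes above the range, against 4.42% of 7556 promoters of tested genes and 6.24% of 27025 promoters in all. Over the 147 matched promoters of all genes above the range it was present in 4.08%. TGACG was present in 1 of the 7, that of Ppargc1a, and in 40.1% of the 147, against 31.9% of the tested genes and 21.0% of all promoters. The 7 genes were picked by these values and the motifs with them known, so the 3 of 7 is a description. Enrichment was not tested. A match is a description of these letters and was not tested for binding.

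Igfbp1, a secreted binding protein of insulin-like growth factors that insulin turns down, was at 812 and 579 FPKM against 3.27 to 469 FPKM (median 29.2). Its log2 fold change was 3.99 (SE 0.41, adjusted p = 9.67e-09), but the spread among lines was wide and it was not called with the line as the unit (adjusted p = 0.587). G6pc, the catalytic subunit of glucose-6-phosphatase, which releases free glucose, was at 826 and 786 FPKM against 45.8 to 651 FPKM (median 158), with a log2 fold change of 2.24 (SE 0.33, adjusted p = 4.86e-06). Irs2, the insulin receptor substrate, was at 7.78 and 15.97 FPKM against 0.31 to 4.46 FPKM (median 1.31), with a log2 fold change of 3.05 (SE 0.31, adjusted p = 9.71e-09). The pair differed from each other at Irs2 by more than at G6pc, and both lay above all others.

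Tat, tyrosine aminotransferase, a glucocorticoid-responsive enzyme of amino acid catabolism, was at 1864 and 1743 FPKM against 90.0 to 1514 FPKM (median 522). Foxo1, the transcription factor that insulin signalling inhibits, was at 15.4 and 14.5 FPKM against 3.37 to 11.7 FPKM, and Ppargc1a, a coactivator of gluconeogenic genes, at 3.23 and 3.88 FPKM against 0.49 to 2.58 FPKM. Their log2 fold changes were 1.79 (SE 0.28), 1.32 (SE 0.14) and 1.59 (SE 0.27), in that order. Sesn2 and Asns were called higher within the range of other mice. Not every member moved this way. Pck1, which encodes the enzyme of an early step of gluconeogenesis, had a log2 fold change of 0.56 (SE 0.27, adjusted p = 0.117), Fbp1 one of 0.09 and Creb3l3 one of -0.22. Gadd45a fell (1.00 and 0.61 FPKM, others 0.76 to 38.9, adjusted p = 0.00867).

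Of 21 tested immediate early genes, which are transcribed within minutes of a stimulus, 12 were called higher (57.1%, all genes 17.1%) and 1 lower (4.76%, all genes 11.1%), with a median log2 fold change of 1.17. No member lay above the range of the other mice. Nr4a2, named above for its gap and like Nr4a1 an orphan nuclear receptor, was not on the list. Nr4a1, an orphan nuclear receptor, was at 23.1 and 30.7 FPKM against 0.08 to 39.0 FPKM (median 0.49), with a log2 fold change of 5.21 (SE 0.33, adjusted p = 3.57e-13). Fos (19.2 and 5.90 FPKM, median of the others 0.35), Btg2 (75.2 and 21.3, median 2.28) and Fosb (0.60 and 0.08, median 0.02) were also called. All 4 lay inside the range of the other mice, whose maximum was in IL-521 for Nr4a1, Fos and Btg2, and none of the list was called with the line as the unit. The mice differed from each other, with 4546 the higher for Fos, Btg2 and Fosb. Ier2 was the exception, at 4.83 and 4.74 FPKM below the lowest other mouse (4.90 FPKM). On TPM and on TMM-scaled counts it was inside the range.

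Of 29 tested chaperone and stress genes of heat shock and the endoplasmic reticulum 13 were called higher (44.8%, all genes 17.1%) and 1 lower (3.45%, all genes 11.1%), with a median log2 fold change of 0.26. The called ones were cytosolic and mitochondrial heat shock genes in the main, such as Hspa1a (29.5 and 66.7 FPKM, median of the others 1.09), Hspa1b (77.4 and 242.7, median 9.89), Hsph1 (82.8 and 104.0, median 12.8) and Hspb1 (26.0 and 40.0, median 5.48). All 4 lay inside the range of the other mice, and Hspa1a and Hspa1b are near copies whose reads can be split. The chaperone of the endoplasmic reticulum Hspa5 had a log2 fold change of -0.07 (SE 0.21, adjusted p = 0.87), and Xbp1, a transcription factor of the unfolded protein response, lay below all other mice (48.4 and 48.4 FPKM, others 51.9 to 339, adjusted p = 0.00145), though within their range on TPM. Nfil3, a circadian repressor, was at 51.8 and 34.04 FPKM against 2.74 to 28.1 FPKM (log2 fold change 2.44, SE 0.24, adjusted p = 4.56e-09). The 17 clock genes had 4 called higher (23.5%), a share near that of all genes (17.1%).

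**Figure D4:**
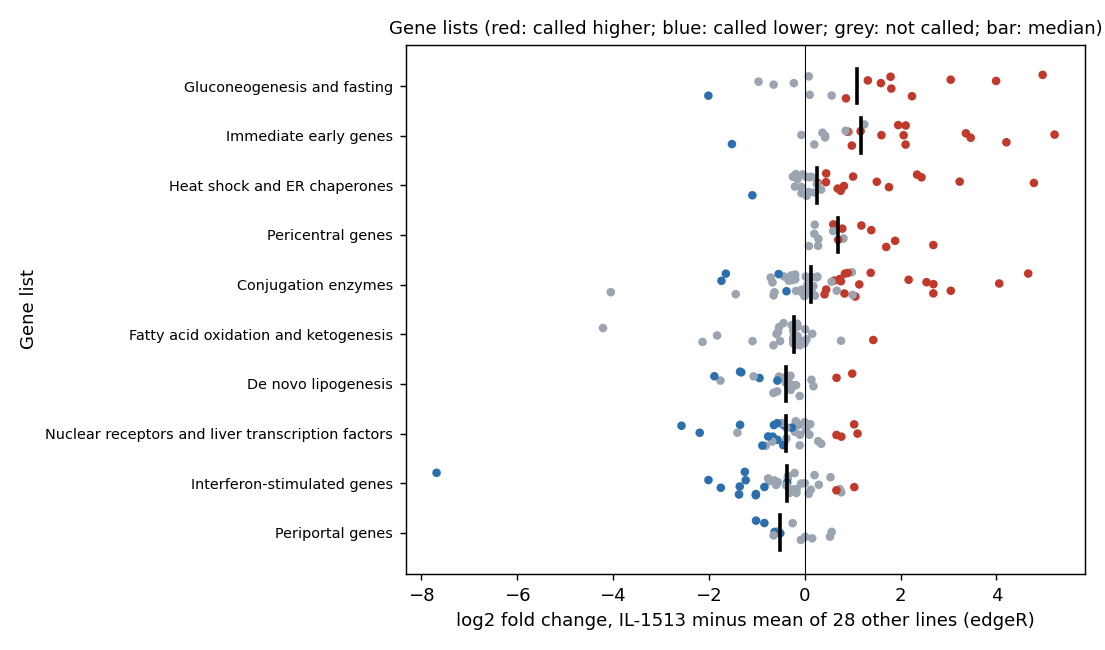
edgeR log2 fold change of IL-1513 against the mean of the 28 other lines for the tested genes of 10 lists; red and blue points were called higher and lower and black bars are list medians. The medians lie at 1.09 for fasting genes and 1.17 for immediate early genes, and at -0.39 for de novo lipogenesis and -0.51 for periportal genes.

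Of 23 tested genes of de novo lipogenesis 5 were called lower (21.7%, all genes 11.1%) and 2 higher (8.70%, all genes 17.1%), with a median log2 fold change of -0.39. Srebf1, a transcription factor of lipid synthesis, was at 11.6 and 16.2 FPKM against 12.3 to 103 FPKM (median 35.1), with a log2 fold change of -1.35 (SE 0.33, adjusted p = 0.00286). The fatty acid synthase Fasn was at 23.5 and 26.1 FPKM (median of the others 68.8). No gene of the list lay outside the range of the other mice, and none was called with the line as the unit. Among 31 genes of fatty acid oxidation and ketogenesis edgeR called 1 higher (3.23%, all genes 17.1%) and none lower (all genes 11.1%), fewer than over all genes. The called gene was Pdk4 (6.59 and 2.50 FPKM, median of the others 1.44, adjusted p = 0.0328 by edgeR). In the growth hormone axis, Igfals, which carries circulating IGF1, was at 15.2 and 17.8 FPKM, just below the lowest other mouse (17.9 FPKM) and inside the range on TPM, and Igf1 was called lower (log2 fold change -0.51, SE 0.13, adjusted p = 0.0044). Socs3 and Igfbp3 were among those called higher. Of the 17 tested genes of this axis 3 were called higher (17.6%) and 2 lower (11.8%). These shares were near the 17.1% and 11.1% of all genes.

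The lower genes had narrower gaps to the nearest other mouse than the higher ones on the log2(FPKM + 1) scale. The added 1 narrows gaps at low levels, where several of the lower genes lay. Klf10, a zinc finger factor induced by TGF-beta, was at 0.76 and 1.03 FPKM against 2.15 to 19.6 FPKM (median 5.62), with a log2 fold change of -2.84 (SE 0.44, adjusted p = 1.33e-05). Foxa2, a pioneer factor of liver enhancers, was at 1.11 and 2.04 FPKM against 2.53 to 15.6 FPKM (median 6.89), with a log2 fold change of -2.19 (SE 0.36, adjusted p = 3.17e-05). Ifi30, a lysosomal thiol reductase, was at 2.70 and 1.68 FPKM against 4.50 to 30.4 FPKM. Genes of mitochondrial translation were Lars2, the mitochondrial leucyl-tRNA synthetase (427 and 449 FPKM, others 553 to 3180), and Mto1, which modifies mitochondrial tRNA (3.62 and 2.93, others 4.25 to 8.68), the latter inside the range on TMM-scaled counts. Cytoskeletal genes were Tuba1c (17.9 and 16.9 FPKM, others 20.1 to 79.5) and the tubulin cofactor Tbcc (1.08 and 0.96, others 1.35 to 4.54), and innate signalling genes were Ikbke and Ticam1. Bcar1, Anks4b, Fahd1, Ccdc94 and Slc9a3r1 completed the 15. Bcar1 alone among them was called with the line as the unit (2.98 and 3.71 FPKM, others 4.78 to 11.8, adjusted p = 0.0403).

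Of 36 tested nuclear receptors and liver transcription factors 12 were called lower (33.3%, all genes 11.1%) and 4 higher (11.1%, all genes 17.1%), with a median log2 fold change of -0.38. Besides Foxa2 and Srebf1, these included Nr0b2, the bile-acid-induced repressor SHP (3.97 and 3.29 FPKM, median of the others 21.1, log2 fold change -2.57, SE 0.48), and the xenobiotic receptor Nr1i3 (21.9 and 22.3 FPKM, median 40.4). Cebpb, a factor of the acute phase and of gluconeogenesis, was called higher (73.0 and 59.5 FPKM, median 27.8). Of this list, which does not hold Nr4a2, only Foxa2 lay outside the range of the other mice.

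Drug disposition was the subject of the study. Of 40 genes that it singled out on these same samples, which makes the list no independent evidence, 17 were called higher (42.5%, all genes 17.1%) and 6 lower (15%, near the 11.1% of all genes), with a median log2 fold change of 0.16. Some of the 40, such as Gsta2 and Nr1i3, were singled out by the share of an isoform and not by total expression. Gsta2, a glutathione transferase (chr9:78178825-78203595, mm9), was at 231 and 209 FPKM against 6.37 to 135 FPKM (median 29.9), with a log2 fold change of 2.68 (SE 0.28, adjusted p = 1.79e-08 by edgeR). It was not called with the line as the unit (adjusted p = 0.328), since other lines also differed widely. The study displayed IL-1513 at this gene as a line with the haplotype of founder strain CAST. It described lower read coverage in mice with the haplotype of founder strain B6. Abcc6, an efflux transporter of the ABC family (chr7:53231750-53285672, mm9), was at 8.34 and 10.5 FPKM against 11.1 to 45.8 FPKM (median 24.4), with a log2 fold change of -1.35 (SE 0.15, adjusted p = 7.90e-08) and an adjusted p of 0.114 with the line as the unit. Slc22a3, an organic cation transporter, was at 4.11 and 3.35 FPKM against 0.22 to 1.83 FPKM. Slc22a3 passed the filter of 2 FPKM only through the IL-1513 mice, and so had to be high. Of 56 conjugation enzymes 18 were called higher (32.1%, all genes 17.1%) and 4 lower (7.14%, all genes 11.1%), among them Nnmt (169 and 162 FPKM, median of the others 6.73) and Ugt1a10 (140 and 120, median 3.24) inside the range of the other mice. Of 45 cytochromes P450 of families 1 to 3, 11 were called higher (24.4%) and 5 lower (11.1%), shares near those of all genes, and none lay outside the range. Members of these families share sequence, so their separate levels are uncertain.

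Pericentral genes, expressed around the central vein, were called higher in 8 of 15 cases (53.3%, all genes 17.1%) and lower in none by edgeR, with a median log2 fold change of 0.70. Periportal genes were called lower in 5 of 13 cases (38.5%, all genes 11.1%) and higher in none, with a median of -0.51. Lgr5, a Wnt pathway receptor of pericentral hepatocytes, was the member outside the range, at 3.53 and 3.07 FPKM against 0.23 to 2.20 FPKM. Rhbg, an ammonium transporter, was at 19.5 and 15.6 FPKM (median of the others 4.77), and Glul, glutamine synthetase, at 451 and 429 FPKM (median 287). On the periportal side Hal, histidine ammonia-lyase, was at 49.6 and 43.5 FPKM (median 98.3) and Alb at 17718 and 18908 FPKM (median 32232). In bulk tissue, fewer cells of a type and less RNA per cell cannot be told apart, and none of these genes was called with the line as the unit. In amino acid catabolism Slc25a15, the mitochondrial ornithine transporter, was outside the range (216 and 204 FPKM, others 57.6 to 144) and was called with the line as the unit (adjusted p = 0.0165).

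Genes outside the range lay on 20 of the chromosomes, at 0.527% (chromosome 6) to 3.73% (chromosome 2) of the tested genes of an autosome. There were 8 runs of at least 3 such genes with neighbouring starts within 1 Mb, 26 genes in all. On chromosome 9 Gm3776, Gsta2, Mto1 and Slc17a5 lay between 78104949 and 78435848 (mm9), 4 of the 6 tested genes of the interval. Gm3776, a near copy of glutathione transferase genes, was at 0 in both IL-1513 mice and at 0.11 to 43.4 FPKM in the others, next to the high Gsta2. Further along, Snhg5, 9430037G07Rik, Gm2382 and 9330159M07Rik (88415894 to 88753691) were all higher, 4 of 6 tested genes, and for each the nearest other mouse was of line IL-785. On chromosome 8 the neighbours Slc25a15, Mrps31 and Gm17491 were higher (3 of 5 tested genes), and Zfp963 and Pbx4 were higher with Ifi30 lower (3 of 38). On chromosome 2 Lmo2 was higher with Cd59b and Cd59a lower (3 of 4), the latter pair being complement regulators that are copies of each other. On chromosome 10 Cited2, Heca and Reps1 were higher (3 of 5), as on chromosome 1 were Gm9747, Mff and Tm4sf20 (3 of 5). Tm4sf20 and Pbx4 (others at most 1.25 and 0.69 FPKM) passed the filter of 2 FPKM only through the IL-1513 mice, and so had to be high. Without them their runs would not reach 3 genes. On chromosome 7 Ppp1r15a and Tsg101 were higher with Abcc6 between them lower (3 of 25). Of the 26, Gm9747, Mff, Tm4sf20, Mto1, Cd59b, Tsg101, Gm17491, Slc17a5 and Snhg5 were inside the range on TMM-scaled counts.

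The isoform ratio, the percentage of a gene's transcripts assigned to an isoform, was compared by the same range rule over 39239 isoforms of 6548 genes with at least 50 fragments in each mouse. Both IL-1513 mice were above all others for 206 isoforms (0.525%) and below for 121 (0.308%), in 237 genes, of which 12 were also outside the range in total expression. No test was made of these ratios. For 40 the gap exceeded 5 percentage points.

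The clearest case was Ppp2r1b, a scaffold subunit of protein phosphatase 2A. Its isoform ENSMUST00000176055 was at 27.9% and 28.3% in the IL-1513 mice and at 0 to 2.90% (median 0) in the others, and the gene's total expression was also above the range (15.7 and 14.3 FPKM, others 2.73 to 9.13, adjusted p = 3.14e-12). Hagh, a glyoxalase, used its isoform ENSMUST00000118788 at 85.5% and 84.8% against 0 to 65.5% (median 24.9%), and ENSMUST00000024974 at 0 and 8.11% against 28.1% to 88.3%, with total expression that was not called (adjusted p = 0.145). The liver factor Foxa3 had its coding isoform ENSMUST00000036018 at 44.7% and 44.8% against 60.4% to 100%, the remainder being ENSMUST00000153321, annotated as a processed transcript. Crem, a cAMP-responsive modulator, had ENSMUST00000151084 at 44.3% and 37.4% against 0 to 21.9% (median 7.10%), a 3-exon isoform with 324 coding bases that starts inside the gene. Total Crem was 70.5 and 91.9 FPKM against 8.49 to 85.1 FPKM, called higher (log2 fold change 2.11, SE 0.16, adjusted p = 3.27e-11). Slc1a2, a glutamate transporter of pericentral hepatocytes, had ENSMUST00000111211 at 65.6% and 68.1% against 16.4% to 50.2%. Klf10 had ENSMUST00000167500 at 100% in both mice against 0 to 70.2%, but on 67 and 86 fragments for the gene. For Gsta2, ENSMUST00000034902 was at 99.8% and 99.6% against 66.0% to 97.9%. The study stated that known isoforms did not account fully for the reads of lines with the CAST or PWK haplotype here. The share is thus one among annotated isoforms only.

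**Figure D5:**
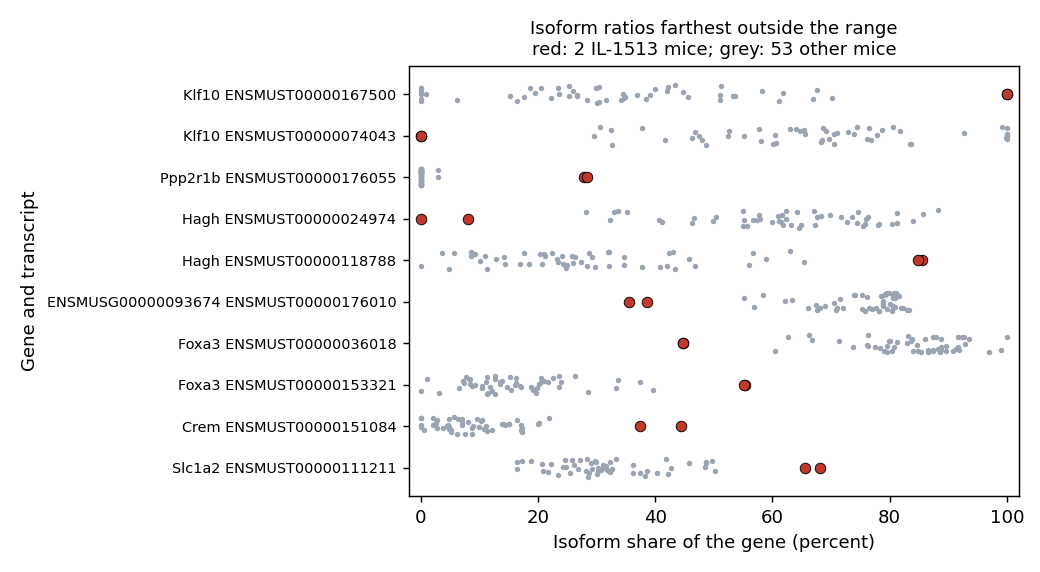
Share of the gene's transcripts (percent) for the 10 isoforms with the widest gap between the nearer IL-1513 mouse and the nearest other mouse; red points are the 2 IL-1513 mice and grey points the 53 other mice. The Ppp2r1b isoform is near 28% in both IL-1513 mice and at most 2.90% elsewhere.

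At the threshold of the range rule the differences were small. The higher gene nearest to it inside was Pgap2 (22.2 and 18.5 FPKM, highest other mouse 18.5), and the nearest not meeting it was Atl2 (54.0 and 62.5 FPKM, highest other mouse 54.0). When the nearer IL-1513 mouse had to be at least 1.5-fold beyond the nearest other mouse, on FPKM + 0.5, 37 higher and 2 lower genes were left, the lower ones being Klf10 and Ifi30. The added 0.5 narrows ratios at low levels, where several of the lower genes lay.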

How the data were processed

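Liver RNA of 55 male CC mice was sequenced as paired reads of 50 bases. Per the labels and the study's methods, the authors aligned to mm9 with Bowtie 2 (2.1.0) and RSEM (1.2.18) on Ensembl 67, and deposited an expected count, FPKM and TPM per gene and the isoform percent per mouse. The expected counts were estimated by RSEM for the authors' files and are not whole. Multi-mapped fragments are shared out by RSEM, so paralogue values depend on its model. Names and mm9 coordinates came from Ensembl 65, which named 37205 of 37620 genes.

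Genes with a maximum FPKM of at least 2 were kept (11284). Expected counts were rounded and fitted with edgeR 4.0.16 (TMM, quasi-likelihood, 1 coefficient per line, 26 residual degrees of freedom), with Benjamini-Hochberg adjustment. In simulated data, 86 of 100 genes set at a log2 change of 1 were recovered and 96 of 100 set at 2. Of the 197 calls 15 were false. The simulated IL-1513 equalled the mean of the other lines at unset genes, so the spread between lines was not covered. With 2 replicates in the line the precision is limited, and depth was 20542671 to 33953036 fragments per mouse. The lists (46) and the line were chosen with earlier results of these data known. Named genes were the 15 widest gaps per direction (predicted genes and pseudogenes apart), list genes outside the range and called, members of runs, Abcc6 and Gsta2, the isoform ratios with the widest gaps, and the strongest called list members. Other genes, such as Crem, Ppp2r1b and Cebpb, were named after their values were seen.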

Additional observations from a re-analysis of the deposited data

How the results depend on the processing

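No paired analysis was possible because the labels give each mouse its own number. With the line as the unit, edgeR called 48 genes higher and 5 lower, and of the genes outside the range 45 and 2. Against lines of at most 20 g alone the higher calls numbered 1218, and 696 and 367 genes lay outside the range (502 and 306 of them called). Against lines of at most 8.4 weeks the calls numbered 1146 and 763 (632 and 254 also outside that smaller range). Fewer comparison mice make a narrower range by construction. Leaving out 1 IL-1513 mouse gave 1125 to 1215 higher and 582 to 699 lower calls, 550 to 695 and 116 to 152 genes outside the range (450 to 551 and 104 to 124 called), and 968 to 1123 and 339 to 575 isoform ratios, since 1 mouse meets the rule more easily than 2. TMM-scaled counts gave 94 lower genes, and the cause was not tested. The 1.5-fold margin left 37 and 2 genes. Against line means in place of mice, 372 and 129 genes and 486 and 293 isoform ratios lay outside. RLE scaling, DESeq2, limma on log2(FPKM + 1), other filters and leaving out lines IL-1052 and IL-2750 kept the counts of edgeR calls within 1.5 times. Of 64 named genes no fold change reversed under any of the 9 alternatives, and 43 were no longer called with the line as the unit, 3 against lines of at most 20 g and 5 against lines of at most 8.4 weeks. Some named genes were also no longer called when mouse 4546 or mouse 4547 was left out. With 2 mice, the line cannot be told apart from a shared cage or day.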

Other observations

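Of 36 tested interferon-stimulated genes 11 were called lower by edgeR (30.6%, all genes 11.1%) and 2 higher (5.56%, all genes 17.1%), with a median log2 fold change of -0.36. None lay outside the range of the other mice, and none was called with the line as the unit. The largest difference was that of the interferon-inducible GTPase Iigp1, at 0.37 and 0.39 FPKM against a median of 117.5 FPKM (log2 fold change -7.68, SE 1.11, adjusted p = 4.74e-06). It was not called with the line as the unit (adjusted p = 0.158), and 4 of the 53 other mice were also under 1 FPKM. Oasl1, an antiviral gene, was at 0.68 and 0.64 FPKM (median of the others 2.30). Of 7 Kupffer cell and macrophage markers none was called by edgeR, and their summed level was 58.6 and 34.2 FPKM against 10.1 to 275 FPKM in the other mice. Their part in the interferon result was not tested.

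Genes for cytosolic ribosomal proteins were called lower in 19 of 76 cases (25.0%, all genes 11.1%) and higher in 7 (9.21%, all genes 17.1%), with a median log2 fold change of -0.15. Of 21 major urinary protein genes, 6 were called higher (28.6%) and 4 lower (19%), few genes to set against the 17.1% and 11.1% of all genes, and their near-identical copies make single values uncertain.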
